A study of Mus musculus with 58 samples.

Results

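The neurotrophin and late activity-regulated genes described here are 10 genes of a table of 15171 genes, chosen by symbol: *Bdnf*, *Ntrk2*, *Ntrk3*, *Nrn1*, *Vgf*, *Homer1*, *Nptx2*, *Pcsk1*, *Inhba* and *Penk*. All 10 were present and all 10 were tested. RNA was sequenced from 58 C57BL/6 mice in 8 groups of *APOE* isoform, *Abca1* copy number and injury, to ask how losing 1 *Abca1* copy alters the brain's response to traumatic brain injury (TBI). Every mouse carried human *APOE3* or *APOE4* in place of the mouse gene (targeted replacement, homozygous), so no group carried the mouse gene. Mice with 2 copies of *Abca1* are called E3/Abca1+/+ and E4/Abca1+/+, and those with 1 functional copy, which the labels write as APOE3het and APOE4het, are called E3/Abca1+/- and E4/Abca1+/-. *Abca1* encodes the transporter that loads cholesterol and phospholipid onto APOE. At 3 months of age each mouse received anesthesia and a left parietal craniotomy, and the TBI mice also received 1 controlled cortical impact. Sham mice therefore had the craniotomy without the impact. Hippocampus and cortex from the slice holding the impact site were frozen together 14 days later, after subcortical tissue had been removed, so values describe the mixture of both regions and a late time point. The sham groups held 8 E3/Abca1+/+, 7 E3/Abca1+/-, 7 E4/Abca1+/+ and 7 E4/Abca1+/- mice, and the TBI groups 8, 6, 7 and 8, with both sexes in every group.

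Neurotrophins are secreted growth factors that act on receptor tyrosine kinases of the Trk family, and brain-derived neurotrophic factor acting on TrkB supports the survival of neurons and the strengthening of synapses in hippocampus and cortex. When neurons fire, calcium entry switches on immediate early transcription factors such as FOS, EGR and NPAS4, and a later wave of effector genes follows that encodes secreted peptides, the enzymes that cut their precursors, and proteins that reshape the postsynaptic density. *Bdnf*, *Nrn1*, *Vgf*, *Homer1*, *Nptx2*, *Pcsk1*, *Inhba* and *Penk* are known members of that later wave, while *Ntrk2* and *Ntrk3* encode the receptors TrkB and TrkC.

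Total counts per mouse ran from 4421308 to 37877346. Median depth was 18871446 counts over 28 Abca1+/- mice and 8350020 over 30 Abca1+/+ mice, so *Abca1* copy number and sequencing depth cannot be told apart in any comparison between them. *Abca1* itself ranged from 29.2 to 41.6 CPM in E3/Abca1+/- and from 37.7 to 60.8 CPM in E3/Abca1+/+ shams, and from 28.9 to 42.4 and 33.3 to 51.7 CPM with *APOE4*, so the ranges overlapped. In sham mice it was lower with 1 copy in *APOE3* mice, where the log2 difference was -0.45 (standard error 0.08, adjusted p = 0.00933), and it was -0.35 (standard error 0.09, adjusted p = 0.0783) in *APOE4* mice. After TBI *Abca1* rose in every genotype, by 1.55 to 1.92 on the log2 scale (adjusted p up to 1.02e-04). Levels below are counts per 1000000 counts (CPM) after TMM scaling, and folds and adjusted p-values come from edgeR's quasi-likelihood test with Benjamini-Hochberg adjustment over all 15171 genes, called at 0.05. In bulk tissue a lower level can come from fewer cells of a type or from less RNA per cell, and these cannot be told apart. The summed CPM of 10 neuron markers (highest *Snap25*) was 8984 to 10139.7 in sham and 6682 to 9129.7 in injured mice. That of 8 astrocyte markers was 5514 to 7052 and 6912 to 11142, and no marker of any list used here was at 0 in all 58 mice. Replicate 8 of the injured E4/Abca1+/- mice stood apart: its sum of 8 striatal neuron markers was 696 CPM against 112 to 207 in the other 57 mice, and its sum of 11 hippocampal markers was the lowest of all, 248 CPM. Calls that changed without it, and the values of *Penk*, are given with and without it.

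Per kilobase of summed exon length, the mean level in sham mice was highest for *Nrn1* at 93.2 CPM per kb. It was followed by *Vgf* at 76.4, *Ntrk2* at 36.0, *Penk* at 26.0, *Nptx2* at 21.4 and *Homer1* at 18.4 CPM per kb. *Pcsk1* had 9.37, *Bdnf* 7.04, *Ntrk3* 3.07 and *Inhba* 0.717 CPM per kb. *Inhba* was thus the scarcest of the 10, with 5 counts in its lowest library, while the lowest count of any other of these genes was 110 (*Bdnf*). *Ntrk2* and *Ntrk3* have long exons that several transcript forms share only in part, and a value per kb of any single form can differ from these. Counts per gene do not separate full-length from truncated TrkB, nor long from short *Homer1* forms. By the annotation of GRCm38.p6, the genes span *Bdnf* at chr2:109674700-109727043, *Nrn1* at chr13:36725622-36734477, *Vgf* at chr5:137025301-137033351, *Pcsk1* at chr13:75089420-75134861, *Inhba* at chr13:16004256-16031609, *Nptx2* at chr5:144545887-144557478, *Homer1* at chr13:93303757-93405129, *Ntrk2* at chr13:58806472-59133970, *Ntrk3* at chr7:78179986-78581034 and *Penk* at chr4:4133536-4138815. Antisense genes overlap *Bdnf*, *Nrn1*, *Penk*, *Inhba*, *Ntrk2* and *Ntrk3* on GRCm38.p6, and whether counting used strand is not given in the sources used here.

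At 14 days after injury 8 of the 10 genes had fallen and 1, *Ntrk2*, had risen. Averaged over the 4 genotypes, *Bdnf* was 31.5% lower, *Pcsk1* 41.3% lower, *Inhba* 43.2% lower and *Homer1* 34.0% lower, and *Ntrk2* was 26.0% higher, while *Penk* passed the test in no genotype. The mean injury comparison called 9 of the 10 genes, beside 53.3% of all genes tested. Of the 9, 8 were lower, where 24.3% of all genes were, and 1 was higher, where 29.0% of all genes were. As a group, the 10 genes had a median log2 fold change of -0.56, against 0.01 over all genes. Within genotypes, 9 of the 10 were called in E3/Abca1+/+ mice beside 23.3% of all genes (8 lower beside 10.8%, 1 higher beside 12.5%). In E3/Abca1+/- mice 7 were called beside 23.8% of all genes (6 lower beside 10.1%, 1 higher beside 13.7%). In E4/Abca1+/+ mice 8 were called beside 14.1% (7 lower beside 4.98%, 1 higher beside 9.08%), and in E4/Abca1+/- mice 9 beside 34.0% (8 lower beside 16.3%, 1 higher beside 17.7%). The median of the 10 genes was -0.65, -0.57, -0.44 and -0.56 in the same order, and the median of all genes lay within 0.01 of 0 in each. The ranges of the sham and TBI mice did not overlap for 1 of the 10 genes in E3/Abca1+/+ mice (*Ntrk2*, beside 6.39% of all genes), for 2 in E3/Abca1+/- mice (*Ntrk2* and *Vgf*, beside 9.96%), for 1 in E4/Abca1+/+ mice (*Ntrk2*, beside 4.52%) and for 1 in E4/Abca1+/- mice (*Pcsk1*, beside 9.75%).

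**Figure D1:**
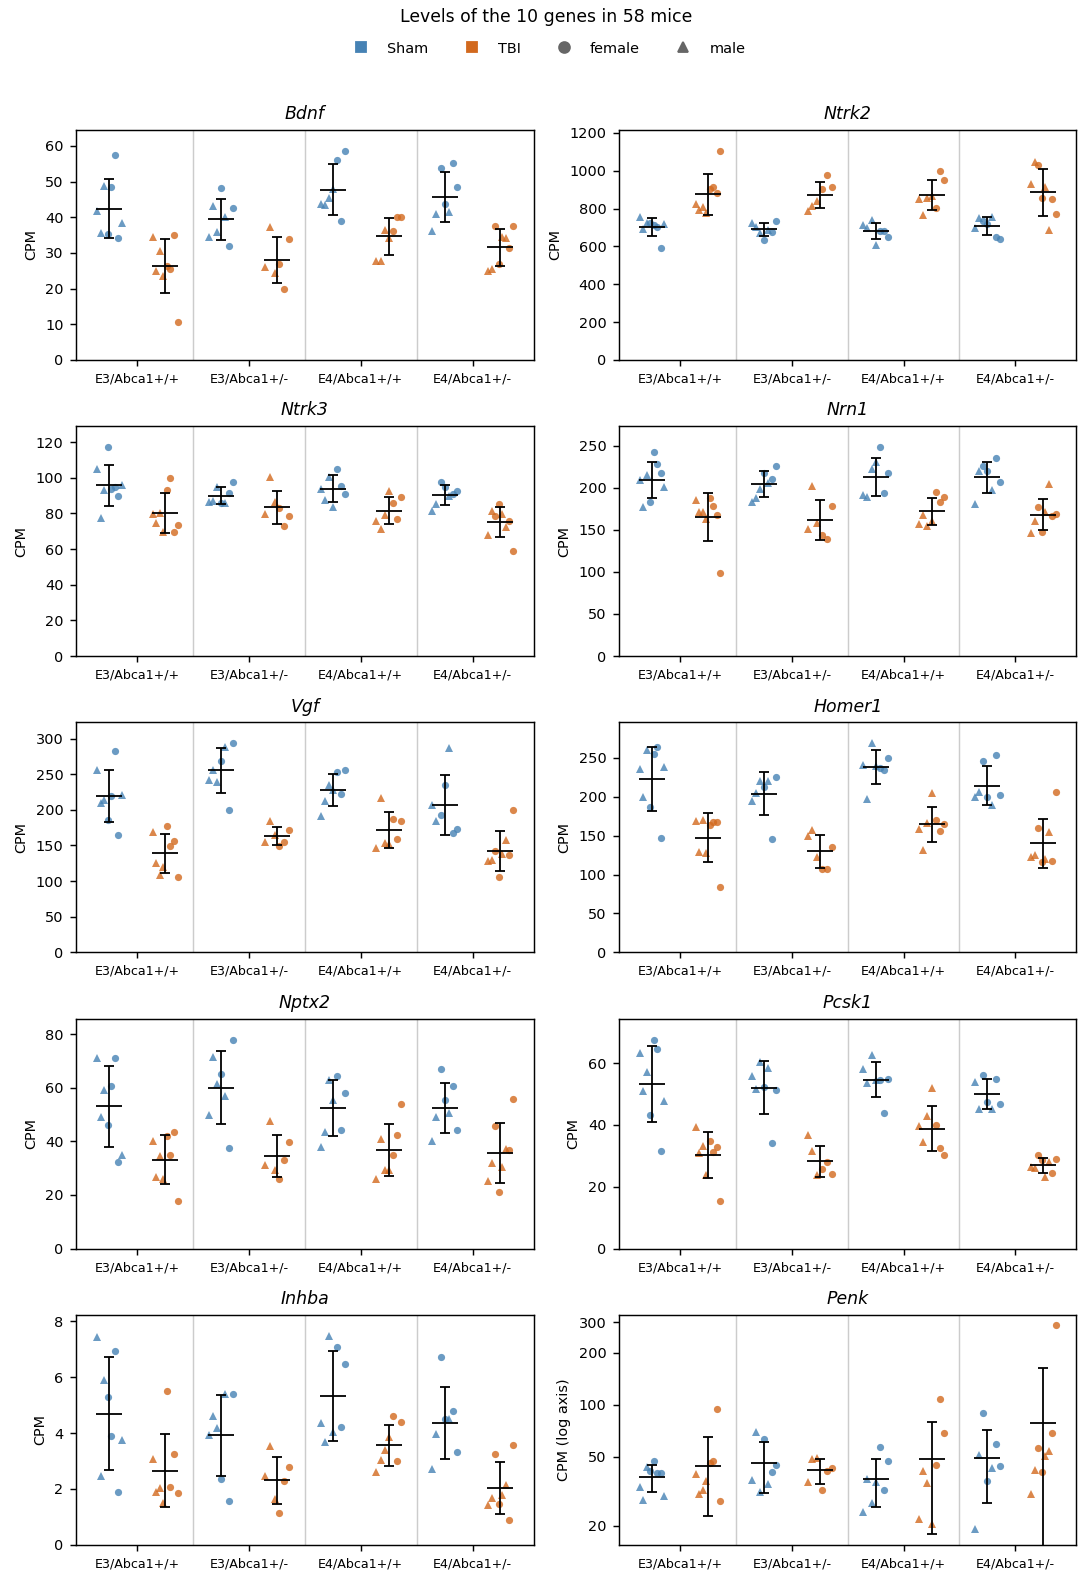
CPM of each of the 10 genes (y axis, logarithmic for *Penk*) in each of 58 mice by genotype (x axis), sham in blue and TBI in orange, with circles for females and triangles for males. Black bars are the group mean and SD, and the lower SD bar of *Penk* in injured E4/Abca1+/- mice runs off the axis. TBI points sit lower for *Bdnf*, *Vgf*, *Homer1* and *Pcsk1* and higher for *Ntrk2*, and 1 injured E4/Abca1+/- mouse has 289 CPM of *Penk*.

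*Bdnf*, which encodes the secreted ligand of TrkB, fell after TBI in every genotype. In E3/Abca1+/+ mice, *Bdnf* ranged from 34.1 to 57.3 CPM (median 40.1, n = 8) after sham surgery and from 10.7 to 34.9 CPM (median 26.0, n = 8) after TBI. *Bdnf* lay between 31.8 and 48.1 CPM (median 40.1, n = 7) in sham E3/Abca1+/- mice and between 19.8 and 37.1 CPM (median 26.5, n = 6) in injured ones. The ranges overlapped in both, with 6 of 8 injured E3/Abca1+/+ mice and 4 of 6 injured E3/Abca1+/- mice below every sham mouse of their genotype. The level of *Bdnf* in E4/Abca1+/+ mice ran from 38.8 to 58.6 CPM (median 45.5, n = 7) without the impact and from 27.6 to 40.1 CPM (median 36.3, n = 7) with it. Sham E4/Abca1+/- mice had *Bdnf* levels of 36.2 to 55.3 CPM (median 43.6, n = 7), and injured ones of 24.9 to 37.5 CPM (median 32.7, n = 8). The ranges overlapped here as well, with 5 of 7 and 6 of 8 injured mice below all shams. The log2 fold change of *Bdnf* was -0.72 in E3/Abca1+/+ mice (standard error 0.17, adjusted p = 0.00359) and -0.49 in E3/Abca1+/- mice (standard error 0.13, adjusted p = 0.0115). It was -0.46 in E4/Abca1+/+ mice (standard error 0.10, adjusted p = 0.00628) and -0.56 in E4/Abca1+/- mice (standard error 0.11, adjusted p = 7.25e-04). Averaged over genotypes it was -0.55 (standard error 0.07, -0.69 to -0.40 as the 95% interval, adjusted p = 5.17e-09). The lowest value, 10.7 CPM, came from injured E3/Abca1+/+ replicate 8, in which *Nrn1*, *Homer1*, *Nptx2* and *Pcsk1* were also the lowest of all 58 mice and *Ntrk2* the highest. That mouse had the lowest neuron marker sum (6682 CPM) and the highest astrocyte marker sum (11142 CPM) of all mice. Leaving out any 1 mouse kept *Bdnf* called in all 4 genotypes, with adjusted p-values up to 0.0309.

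Promoter sequence is shown for 1 start each of *Bdnf*, *Homer1* and *Pcsk1*, as the ones of these genes that hold the core of the cAMP response element, the sequence bound by CREB, a factor that many activity-regulated genes share. RefSeq promoter entries (GRCm38.p6, the 250 bases before each annotated start) were found for 5 of the 10 genes, *Bdnf*, *Homer1*, *Inhba*, *Ntrk2* and *Pcsk1*, with 12 starts in all, 7 of them of *Bdnf*. No promoter of *Nrn1*, *Ntrk3*, *Nptx2*, *Penk* or *Vgf* was used here. Searched on both strands, the element's core TGACG was in 3 of the 12 promoters, 1 each of *Bdnf*, *Homer1* and *Pcsk1*, beside 17.8% of all 32851 promoters, so the share among these 12 lay near the background. The other promoters of *Bdnf* and *Homer1* held none, nor did that of *Inhba*, the gene with the largest fall. The whole palindrome TGACGTCA, which contains that core on each strand, was in 1 (*Pcsk1*) beside 1.55%. TGANTCA, bound by FOS and JUN, was in 1 (*Bdnf*) beside 6.75%, TCGTG, bound by NPAS4, in 2 (*Bdnf*) beside 13.3%, and GCGNGGGCG, bound by EGR1, in 0 beside 4.70%. The CArG box bound by SRF was in 0 beside 1.47%. A match describes letters in these windows and is no evidence of binding in these mice. Capitals mark TGACG or its reverse complement (*Bdnf* and *Homer1*, chr2:109692186-109692435 and chr13:93303507-93303756, plus strand, 5′ to 3′) and the whole element in a 30-base window of *Pcsk1* (chr13:75089768-75089797, plus strand), whose first element base lies 78 bases before the RefSeq start. The *Bdnf* window and the *Pcsk1* window belong to starts inside the gene spans printed above, which are those of RefSeq.
*Bdnf*: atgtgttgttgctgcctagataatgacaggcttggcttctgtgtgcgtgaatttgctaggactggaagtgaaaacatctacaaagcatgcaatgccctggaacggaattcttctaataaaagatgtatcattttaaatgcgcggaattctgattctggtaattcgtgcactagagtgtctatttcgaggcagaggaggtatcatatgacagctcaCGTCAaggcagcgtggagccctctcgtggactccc
*Homer1*: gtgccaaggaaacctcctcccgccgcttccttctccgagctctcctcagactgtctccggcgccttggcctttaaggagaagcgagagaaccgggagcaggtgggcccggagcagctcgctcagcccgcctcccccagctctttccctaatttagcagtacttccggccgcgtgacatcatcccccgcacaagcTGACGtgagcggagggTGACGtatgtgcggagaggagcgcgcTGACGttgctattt
*Pcsk1*: ccaggtagatcTGACGTCAagagatggctt

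*Nrn1* encodes neuritin, a membrane-anchored protein that promotes the growth of neurites and the stability of synapses. Sham E3/Abca1+/+ mice had *Nrn1* levels of 178 to 242 CPM (median 212, n = 8), and injured ones of 98.1 to 188 CPM (median 171, n = 8). In E3/Abca1+/- mice, *Nrn1* ranged from 183 to 225 CPM (median 206, n = 7) after sham surgery and from 139 to 202 CPM (median 154, n = 6) after TBI. Injured mice lay below every sham mouse in 5 of 8 and 5 of 6 cases, and the ranges overlapped. *Nrn1* lay between 189 and 248 CPM (median 218, n = 7) in sham E4/Abca1+/+ mice and between 154 and 194 CPM (median 168, n = 7) in injured ones. The level of *Nrn1* in E4/Abca1+/- mice ran from 181 to 235 CPM (median 220.2, n = 7) without the impact and from 146 to 204 CPM (median 168, n = 8) with it. In *APOE4* mice 6 of 7 and 7 of 8 injured mice lay below all shams. For *Nrn1* this gave log2 fold changes of -0.35 in E3/Abca1+/+ mice (standard error 0.10, adjusted p = 0.0136) and -0.33 in E3/Abca1+/- mice (standard error 0.08, adjusted p = 0.00626). In *APOE4* mice they were -0.31 in E4/Abca1+/+ mice (standard error 0.07, adjusted p = 0.00757) and -0.37 in E4/Abca1+/- mice (standard error 0.07, adjusted p = 5.55e-04). Averaged over genotypes, *Nrn1* changed by -0.33 (standard error 0.04, -0.42 to -0.24 as the 95% interval, adjusted p = 6.93e-09), a smaller fall than that of *Bdnf*, with 23 of 29 injured mice below every sham mouse of their genotype.

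*Vgf* encodes a precursor that is stored in dense core granules and cut into secreted peptides. The level of *Vgf* in E3/Abca1+/+ mice ran from 165 to 282 CPM (median 216, n = 8) without the impact and from 106 to 178 CPM (median 137, n = 8) with it. Sham E3/Abca1+/- mice had *Vgf* levels of 199.9 to 293 CPM (median 256, n = 7), and injured ones of 149.6 to 184 CPM (median 159.8, n = 6). Every injured E3/Abca1+/- mouse was below every sham mouse, whereas the E3/Abca1+/+ ranges overlapped. In E4/Abca1+/+ mice, *Vgf* ranged from 192 to 256 CPM (median 228, n = 7) after sham surgery and from 146 to 216 CPM (median 159.7, n = 7) after TBI. *Vgf* lay between 168 and 287 CPM (median 193, n = 7) in sham E4/Abca1+/- mice and between 105 and 199.9 CPM (median 137, n = 8) in injured ones. In these the ranges overlapped, with 6 of 7 and 7 of 8 injured mice below all shams. Fitted on counts, the log2 fold change was -0.67 in E3/Abca1+/+ mice (standard error 0.12, adjusted p = 2.06e-04) and -0.65 in E3/Abca1+/- mice (standard error 0.08, adjusted p = 1.77e-05). The *APOE4* values were -0.42 in E4/Abca1+/+ mice (standard error 0.09, adjusted p = 0.00352) and -0.57 in E4/Abca1+/- mice (standard error 0.13, adjusted p = 0.00198). The mean over genotypes was -0.57 (standard error 0.06, -0.68 to -0.45 as the 95% interval, adjusted p = 2.67e-12), and 25 of 29 injured mice were below every sham mouse of their genotype, the most of the 8 genes that fell. The highest injured E4/Abca1+/- mouse, at 199.9 CPM, was replicate 8, the mouse with high striatal markers.

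*Pcsk1* encodes prohormone convertase 1, an enzyme of the regulated secretory pathway that cuts precursors including those of *Vgf* and *Penk*. *Pcsk1* lay between 31.7 and 67.6 CPM (median 54.1, n = 8) in sham E3/Abca1+/+ mice and between 15.5 and 39.5 CPM (median 32.1, n = 8) in injured ones. The level of *Pcsk1* in E3/Abca1+/- mice ran from 34.2 to 60.3 CPM (median 52.4, n = 7) without the impact and from 23.7 to 36.6 CPM (median 26.7, n = 6) with it. In both, sham and TBI ranges overlapped, although 4 of 8 and 5 of 6 injured mice were below every sham mouse. Sham E4/Abca1+/+ mice had *Pcsk1* levels of 43.9 to 62.7 CPM (median 54.6, n = 7), and injured ones of 30.2 to 51.8 CPM (median 39.7, n = 7). In E4/Abca1+/- mice, *Pcsk1* ranged from 45.1 to 56.1 CPM (median 47.6, n = 7) after sham surgery and from 23.2 to 30.2 CPM (median 27.1, n = 8) after TBI. The E4/Abca1+/- groups did not overlap: all 8 injured mice were below all 7 shams, and their spread was narrow (SD 2.37 CPM against 7.31 CPM in injured E4/Abca1+/+ mice). On the log2 scale *Pcsk1* differed by -0.84 in E3/Abca1+/+ mice (standard error 0.16, adjusted p = 6.68e-04) and by -0.88 in E3/Abca1+/- mice (standard error 0.12, adjusted p = 7.18e-05). With *APOE4* it differed by -0.49 in E4/Abca1+/+ mice (standard error 0.10, adjusted p = 0.00460) and by -0.91 in E4/Abca1+/- mice (standard error 0.07, adjusted p = 3.35e-07). The mean over genotypes was -0.77 (standard error 0.07, -0.90 to -0.63 as the 95% interval, adjusted p = 6.89e-15), the smallest adjusted p of the 10 genes.

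*Inhba* encodes the subunit that pairs with itself to form activin A, a ligand of the transforming growth factor family that neurons release after strong activity. In E3/Abca1+/+ mice, *Inhba* ranged from 1.90 to 7.43 CPM (median 4.59, n = 8) after sham surgery and from 1.50 to 5.50 CPM (median 2.06, n = 8) after TBI. *Inhba* lay between 1.58 and 5.40 CPM (median 4.17, n = 7) in sham E3/Abca1+/- mice and between 1.15 and 3.54 CPM (median 2.37, n = 6) in injured ones. The ranges overlapped widely, with 3 of 8 and 1 of 6 injured mice below every sham mouse. The level of *Inhba* in E4/Abca1+/+ mice ran from 3.66 to 7.48 CPM (median 4.35, n = 7) without the impact and from 2.62 to 4.60 CPM (median 3.38, n = 7) with it. Sham E4/Abca1+/- mice had *Inhba* levels of 2.73 to 6.73 CPM (median 4.50, n = 7), and injured ones of 0.886 to 3.59 CPM (median 1.72, n = 8). In *APOE4* mice 4 of 7 and 6 of 8 injured mice were below all shams. Tested within genotype, *Inhba* had log2 fold changes of -0.91 in E3/Abca1+/+ mice (standard error 0.29, adjusted p = 0.0280) and -0.76 in E3/Abca1+/- mice (standard error 0.28, adjusted p = 0.0594). Its *APOE4* fold changes were -0.55 in E4/Abca1+/+ mice (standard error 0.19, adjusted p = 0.0669) and -1.10 in E4/Abca1+/- mice (standard error 0.24, adjusted p = 0.00179). Over the 4 genotypes together *Inhba* changed by -0.82 (standard error 0.14, -1.09 to -0.54 as the 95% interval, adjusted p = 1.18e-06), the largest fall of the 10 genes and the one with the widest interval among the 9 called. The call in E3/Abca1+/+ mice was lost without sham replicate 1, 3 or 6 or TBI replicate 4, 6 or 8 (log2 fold changes -1.07 to -0.78 and adjusted p up to 0.0715 over all 16 mice left out in turn). In E3/Abca1+/- mice it was gained with DESeq2's Wald test (adjusted p = 0.0267), with a fit over all 58 mice (0.0409) and without sham replicate 4 or 6 or TBI replicate 2 (lowest adjusted p 0.0131). In E4/Abca1+/+ mice it was gained with sex as a covariate (adjusted p = 0.0481), without sham replicate 2 (0.0376) and on counts thinned to the lowest total, where the log2 fold change was -0.87 (adjusted p = 0.00825).

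*Nptx2* encodes a secreted neuronal pentraxin that gathers AMPA receptors at excitatory synapses. Sham E3/Abca1+/+ mice had *Nptx2* levels of 32.2 to 71.0 CPM (median 54.1, n = 8), and injured ones of 17.8 to 43.5 CPM (median 34.8, n = 8). In E3/Abca1+/- mice, *Nptx2* ranged from 37.4 to 78.0 CPM (median 61.3, n = 7) after sham surgery and from 26.0 to 47.8 CPM (median 32.1, n = 6) after TBI. In these groups 3 of 8 and 4 of 6 injured mice lay below every sham mouse, and the ranges overlapped. *Nptx2* lay between 37.9 and 64.4 CPM (median 55.6, n = 7) in sham E4/Abca1+/+ mice and between 26.0 and 53.9 CPM (median 34.8, n = 7) in injured ones. The level of *Nptx2* in E4/Abca1+/- mice ran from 40.1 to 66.9 CPM (median 50.5, n = 7) without the impact and from 21.1 to 55.8 CPM (median 34.4, n = 8) with it. The overlap was of the same kind in *APOE4* mice, with 4 of 7 and 6 of 8 injured mice below all shams. The log2 fold change of *Nptx2* was -0.71 in E3/Abca1+/+ mice (standard error 0.18, adjusted p = 0.00674) and -0.79 in E3/Abca1+/- mice (standard error 0.16, adjusted p = 0.00166). It was -0.51 in E4/Abca1+/+ mice (standard error 0.16, adjusted p = 0.0371) and -0.59 in E4/Abca1+/- mice (standard error 0.17, adjusted p = 0.0113). Its mean over genotypes was -0.64 (standard error 0.09, -0.83 to -0.45 as the 95% interval, adjusted p = 5.32e-08). In E4/Abca1+/+ mice the call was lost with a fit over all 58 mice (adjusted p = 0.0671) and when sham replicate 3, 4, 5 or 7 or TBI replicate 1, 3, 4 or 5 was left out (adjusted p up to 0.0861, log2 fold changes -0.64 to -0.44).

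*Homer1* encodes a scaffold of the postsynaptic density that links metabotropic glutamate receptors to their partners. The level of *Homer1* in E3/Abca1+/+ mice ran from 147 to 264 CPM (median 237, n = 8) without the impact and from 83.8 to 170.1 CPM (median 166, n = 8) with it. Sham E3/Abca1+/- mice had *Homer1* levels of 146 to 225 CPM (median 213, n = 7), and injured ones of 107 to 157 CPM (median 129, n = 6). Ranges overlapped, with 3 of 8 and 4 of 6 injured mice below every sham mouse. In E4/Abca1+/+ mice, *Homer1* ranged from 197 to 269 CPM (median 239.6, n = 7) after sham surgery and from 131 to 205 CPM (median 166, n = 7) after TBI. *Homer1* lay between 189.7 and 253 CPM (median 203, n = 7) in sham E4/Abca1+/- mice and between 116 and 206 CPM (median 124, n = 8) in injured ones. In *APOE4* mice 6 of 7 and 7 of 8 injured mice were below all shams, and the exception among E4/Abca1+/- mice was replicate 8 at 206 CPM. For *Homer1* this gave log2 fold changes of -0.62 in E3/Abca1+/+ mice (standard error 0.14, adjusted p = 0.00206) and -0.65 in E3/Abca1+/- mice (standard error 0.11, adjusted p = 3.28e-04). In *APOE4* mice they were -0.54 in E4/Abca1+/+ mice (standard error 0.08, adjusted p = 3.10e-04) and -0.64 in E4/Abca1+/- mice (standard error 0.11, adjusted p = 3.64e-04). Its mean over genotypes was -0.60 (standard error 0.06, -0.72 to -0.47 as the 95% interval, adjusted p = 4.66e-12).

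The receptors moved in opposite directions. *Ntrk2*, encoding TrkB, the receptor of BDNF that neurons carry in its full-length and astrocytes mainly in its truncated form, rose in every genotype. *Ntrk2* lay between 590.2 and 756 CPM (median 715, n = 8) in sham E3/Abca1+/+ mice and between 774 and 1104 CPM (median 851, n = 8) in injured ones. The level of *Ntrk2* in E3/Abca1+/- mice ran from 636 to 734 CPM (median 688, n = 7) without the impact and from 787 to 978 CPM (median 869.9, n = 6) with it. No injured *APOE3* mouse overlapped the shams of its genotype. Sham E4/Abca1+/+ mice had *Ntrk2* levels of 608 to 742 CPM (median 681, n = 7), and injured ones of 768 to 999 CPM (median 853, n = 7). In E4/Abca1+/- mice, *Ntrk2* ranged from 638 to 757 CPM (median 717, n = 7) after sham surgery and from 686 to 1044 CPM (median 885, n = 8) after TBI. E4/Abca1+/+ groups did not overlap either, and 1 of 8 injured E4/Abca1+/- mice lay within the sham range. Fitted on counts, the log2 fold change was 0.30 in E3/Abca1+/+ mice (standard error 0.06, adjusted p = 0.00160) and 0.34 in E3/Abca1+/- mice (standard error 0.05, adjusted p = 1.08e-04). The *APOE4* values were 0.35 in E4/Abca1+/+ mice (standard error 0.06, adjusted p = 7.67e-04) and 0.30 in E4/Abca1+/- mice (standard error 0.08, adjusted p = 0.00624). The mean over genotypes was 0.33 (standard error 0.03, 0.26 to 0.40 as the 95% interval, adjusted p = 2.36e-12), and 28 of 29 injured mice were above every sham mouse of their genotype, more than for any of the other 9 genes in either direction.

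*Ntrk3*, encoding TrkC, the receptor of neurotrophin-3, fell by less. In E3/Abca1+/+ mice, *Ntrk3* ranged from 77.5 to 117 CPM (median 94.1, n = 8) after sham surgery and from 69.4 to 100.1 CPM (median 77.2, n = 8) after TBI. *Ntrk3* lay between 85.8 and 97.4 CPM (median 87.0, n = 7) in sham E3/Abca1+/- mice and between 72.8 and 100.2 CPM (median 81.5, n = 6) in injured ones. The ranges overlapped, with 4 of 8 and 4 of 6 injured mice below every sham mouse and 1 injured E3/Abca1+/- mouse above all shams. The level of *Ntrk3* in E4/Abca1+/+ mice ran from 83.3 to 105 CPM (median 93.7, n = 7) without the impact and from 71.3 to 92.3 CPM (median 79.3, n = 7) with it. Sham E4/Abca1+/- mice had *Ntrk3* levels of 81.2 to 97.4 CPM (median 90.9, n = 7), and injured ones of 59.0 to 85.0 CPM (median 77.1, n = 8). In *APOE4* mice 4 of 7 and 6 of 8 injured mice were below all shams. On the log2 scale *Ntrk3* differed by -0.27 in E3/Abca1+/+ mice (standard error 0.08, adjusted p = 0.0231) and by -0.11 in E3/Abca1+/- mice (standard error 0.06, adjusted p = 0.244). With *APOE4* it differed by -0.20 in E4/Abca1+/+ mice (standard error 0.06, adjusted p = 0.0468) and by -0.29 in E4/Abca1+/- mice (standard error 0.07, adjusted p = 0.00239). The mean was -0.21 (standard error 0.04, -0.28 to -0.13 as the 95% interval, adjusted p = 4.56e-06). The call in E3/Abca1+/+ mice was lost without sham replicate 1 or 4 or TBI replicate 4 (adjusted p up to 0.0644), and E3/Abca1+/- mice gained one without TBI replicate 2 (adjusted p = 0.0183, log2 fold change -0.17). The call in E4/Abca1+/+ mice was lost without any of sham replicates 1, 3, 5, 6 and 7 or TBI replicates 1, 2, 3, 5 and 6 (adjusted p up to 0.109), with a fit over all mice (0.0719), with only genes of at least 10 counts in every mouse (0.0689) and with the filter applied to the groups compared (0.0545).

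*Penk*, which encodes proenkephalin, the precursor of the opioid enkephalins, was the 1 gene of the 10 that was not called after injury in any genotype. Sham E3/Abca1+/+ mice had *Penk* levels of 28.2 to 47.3 CPM (median 40.4, n = 8), and injured ones of 27.9 to 94.3 CPM (median 38.1, n = 8). In E3/Abca1+/- mice, *Penk* ranged from 31.4 to 69.9 CPM (median 40.8, n = 7) after sham surgery and from 32.3 to 49.5 CPM (median 42.4, n = 6) after TBI. The ranges overlapped throughout. *Penk* lay between 23.9 and 56.9 CPM (median 35.9, n = 7) in sham E4/Abca1+/+ mice and between 20.4 and 108 CPM (median 41.4, n = 7) in injured ones. The level of *Penk* in E4/Abca1+/- mice ran from 19.0 to 90.3 CPM (median 44.0, n = 7) without the impact and from 30.4 to 289 CPM (median 52.3, n = 8) with it. Of the injured E4/Abca1+/+ mice 2 of 7 were above and 2 below every sham mouse, and of the injured E4/Abca1+/- mice 1 of 8 was above all shams. Tested within genotype, *Penk* had log2 fold changes of 0.18 in E3/Abca1+/+ mice (standard error 0.19, adjusted p = 0.551) and -0.13 in E3/Abca1+/- mice (standard error 0.18, adjusted p = 0.667). Its *APOE4* fold changes were 0.37 in E4/Abca1+/+ mice (standard error 0.31, adjusted p = 0.493) and 0.66 in E4/Abca1+/- mice (standard error 0.44, adjusted p = 0.273). Averaged over genotypes, *Penk* changed by 0.28 (standard error 0.17, -0.06 to 0.62 as the 95% interval, adjusted p = 0.165). The E4/Abca1+/- value rests on replicate 8, whose 289 CPM compared with 30.4 to 68.9 CPM in the other 7 injured mice of its group. Without it the log2 fold change there was -0.04 (adjusted p = 0.917) and the mean over genotypes 0.11 (adjusted p = 0.524). That mouse had 50.6 CPM of *Drd1*, 58.0 of *Adora2a* and 249.7 of *Ppp1r1b*, genes of striatal projection neurons, against 8.91 to 15.9, 1.34 to 15.1 and 36.0 to 78.5 CPM in the other 57. It was the highest of all 58 mice for all 8 striatal markers. The highest *Penk* value of the E3/Abca1+/+ TBI group, 94.3 CPM in replicate 7, came from the mouse with the next highest striatal sum, 207 CPM. Single mice weighed on the other *Penk* estimates too. The log2 fold change was -0.05 in E3/Abca1+/+ mice without TBI replicate 7. It was 0.01 in E3/Abca1+/- mice without sham replicate 2, and 0.07 in E4/Abca1+/+ mice without TBI replicate 6, which had 108 CPM.

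**Figure D2:**
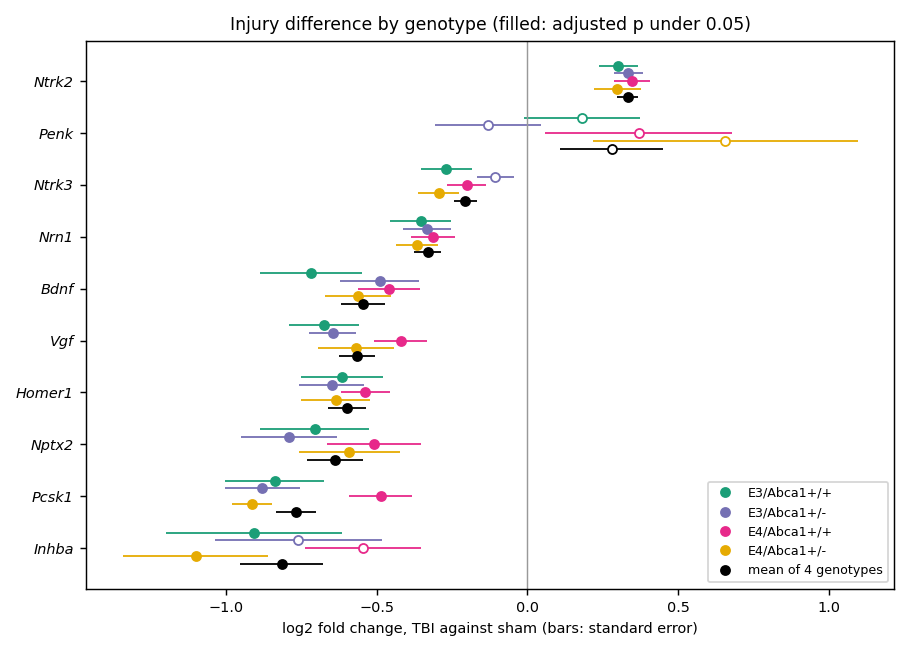
Log2 fold change of TBI against sham (x axis) for each of the 10 genes (y axis) in each genotype (colors) and averaged over genotypes (black), with standard errors as bars and filled points where the adjusted p was under 0.05. *Ntrk2* lies to the right of 0 in every genotype at 0.30 to 0.35, 8 genes lie to the left, and all *Penk* points are open.

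Other genes of these pathways are described by lists whose choice, like that of the 10 genes, was made with earlier results of these data known, and each count is to be read beside the 53.3% of all genes called in the same comparison. Values after a gene name are log2 fold changes. Of neurotrophin ligands, receptors and adaptors other than the 10 genes, 4 of 18 were higher, 9 lower and 5 passed in neither direction (median log2 fold change -0.06). The lead genes were *Shc1* at 0.57 (standard error 0.06, adjusted p = 6.54e-11), an adaptor of Trk receptors, *Sorcs1* at -0.34 (standard error 0.05, adjusted p = 4.83e-08), a sorting receptor, and *Sort1* at -0.18 (standard error 0.03, adjusted p = 8.60e-08), sortilin, which binds neurotrophin precursors. Of dense core granule and prohormone processing genes, 3 of 15 were higher, 10 lower and 2 passed in neither direction (median log2 fold change -0.13). Those with the smallest p differed in direction: *Cpe* at 0.39 (standard error 0.02, adjusted p = 1.63e-23), a carboxypeptidase that trims peptides after the convertases, and *Scg3* at 0.24 (standard error 0.02, adjusted p = 8.27e-14), a granule protein, were higher, and *Scg5* at -0.23 (standard error 0.02, adjusted p = 2.51e-13), the chaperone of prohormone convertase 2, was lower. So *Pcsk1* fell while *Cpe*, the enzyme of the next step, rose.

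Among neuropeptide precursors, 0 of 14 were higher, 9 lower and 5 passed in neither direction (median log2 fold change -0.22), led by *Adcyap1* at -0.55 (standard error 0.05, adjusted p = 5.67e-13), *Cck* at -0.24 (standard error 0.03, adjusted p = 4.58e-08) and *Npy* at -0.35 (standard error 0.06, adjusted p = 4.21e-06). Of the opioid receptors, on which enkephalins act, 0 of 4 were higher, 1 lower and 3 passed in neither direction (median log2 fold change -0.11). *Oprd1*, the delta receptor, was lower, at -0.48 (standard error 0.09, adjusted p = 8.85e-06), while *Oprm1* (-0.18, adjusted p = 0.207) and *Oprl1* (-0.04, adjusted p = 0.233) did not pass. Of pentraxins and partners of Homer proteins, 0 of 12 were higher, 7 lower and 5 passed in neither direction (median log2 fold change -0.13), led by *Dlgap1* at -0.25 (standard error 0.02, adjusted p = 8.68e-13) and *Shank1* at -0.30 (standard error 0.04, adjusted p = 2.56e-08), postsynaptic scaffolds, and *Itpr1* at -0.45 (standard error 0.05, adjusted p = 1.23e-12), the calcium release channel. Of the activin pathway, 3 of 13 were higher, 2 lower and 8 passed in neither direction (median log2 fold change -0.01), with *Inhbb* at 0.23 (standard error 0.05, adjusted p = 3.07e-04), the other activin subunit, *Acvr2a* at 0.17 (standard error 0.04, adjusted p = 4.29e-04) and *Acvr1b* at -0.13 (standard error 0.02, adjusted p = 3.25e-07), both receptors. *Inhba* and *Inhbb* thus moved in opposite directions.

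Of the activity-induced transcription factors, whose wave precedes that of the later effector genes, 1 of 15 were higher, 13 lower and 1 passed in neither direction (median log2 fold change -0.67). *Nr4a1* fell from 97.1 to 50.1 CPM on average (log2 fold change -0.97, standard error 0.10, adjusted p = 2.01e-12). *Egr3* fell from 71.3 to 38.5 CPM (log2 fold change -0.89, standard error 0.07, adjusted p = 3.92e-16). *Atf3*, which injured cells also switch on, rose from 1.05 to 5.84 CPM (log2 fold change 2.40, standard error 0.18, adjusted p = 2.46e-17). The median of these factors, -0.67, lay close to that of the 10 genes, -0.56, which include the receptor genes *Ntrk2* and *Ntrk3*.

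Markers of cell types moved with injury as well. In the mean comparison the markers of neurons gave 0 higher and 8 lower of 10 (median log2 fold change -0.22), excitatory neurons (highest *Camk2a*) 0 higher and 7 lower of 7, interneurons (highest *Gad1*) 0 higher and 7 lower of 8, cortical neurons (highest *Rgs8*) 0 higher and 9 lower of 10, and hippocampal neurons (highest *Wfs1*) 1 higher and 3 lower of 11. Striatal neurons (highest *Ppp1r1b*) had 1 higher and 0 lower of 8, thalamic neurons (highest *Slc17a6*) 5 higher and 2 lower of 7, and choroid plexus (highest *Ttr*) 0 higher and 0 lower of 7. All 8 astrocyte markers (highest *Slc1a2*, median 0.55), all 8 microglia markers (median 1.13) and all 7 markers of meningeal fibroblasts (highest *Igf2*) rose, with oligodendrocytes 3 higher and 0 lower of 7 and endothelial cells (highest *Slco1a4*) 5 higher and 0 lower of 6. Beside the falls of the 8 genes that fell (-0.82 for *Inhba* to -0.33 for *Nrn1* and -0.21 for *Ntrk3*), the median marker fell by 0.22 on the log2 scale for neurons, 0.30 for excitatory and 0.28 for cortical neurons. The summed cortical markers had a median of 589 CPM in sham and 434 CPM in injured mice, a log2 ratio of -0.44, and the log2 ratio of the summed neuron markers was -0.23. The microglia sum was 354 to 558 CPM in sham and 661 to 1482 CPM in injured mice. The part of these marker differences in the changes of the 10 genes was not tested.

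Between mice with 1 and 2 copies of *Abca1*, none of the 10 genes passed the test in 3 of the 4 comparisons, and *Pcsk1* passed it in injured *APOE4* mice. In *APOE3* sham mice edgeR's quasi-likelihood test called 0 of the 10 genes beside 2.20% of all genes, in injured *APOE3* mice 0 beside 0.178%, and in *APOE4* sham mice 0 beside 0.903%. At an unadjusted p under 0.05 the counts were 1 (*Vgf*, log2 fold change 0.22), 0 and 1 (*Homer1*, -0.15), and DESeq2 called 0 in each. Beside them, 2504 of all 15171 genes had such a p in *APOE3* sham mice and 1364 in injured *APOE3* mice. The count in *APOE4* sham mice lay between these. The unadjusted counts therefore do not set *Vgf* or *Homer1* apart from other genes. Log2 fold changes ran from -0.22 to 0.27, from -0.18 to 0.23 and from -0.26 to 0.42, with 95% intervals reaching -0.81 and 0.96 at the widest.

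In injured *APOE4* mice 1 of the 10 genes was called beside 1.39% of all genes: *Pcsk1* was lower in Abca1+/- mice. The 8 injured E4/Abca1+/- mice had 23.2 to 30.2 CPM, and the 7 injured E4/Abca1+/+ mice 30.2 to 51.8 CPM. The groups met at 30.2 CPM, where the highest of the former and the lowest of the latter lay. The log2 fold change was -0.55 (standard error 0.10, -0.76 to -0.33 as the 95% interval, adjusted p = 0.0169). In the same mice *Abca1* itself was 81.0 to 214 CPM with 1 copy and 98.7 to 296 CPM with 2, overlapping widely, with a difference of -0.19 (standard error 0.24, adjusted p = 0.724). Summed microglia markers moved with the comparison, at 915 to 1482 CPM (median 1219.7) with 1 copy and 661 to 1319 CPM (median 779) with 2, and over all 29 injured mice *Pcsk1* ran against that sum (r = -0.55, adjusted permutation p = 0.0231, and 0.0815 by rank). Their part in the *Pcsk1* difference was not tested. The call was lost without E4/Abca1+/+ TBI replicate 3 (log2 fold change -0.52, adjusted p = 0.0579) and on counts thinned to the lowest total (-0.50, adjusted p = 0.0503). *Inhba* had the larger difference, -0.81 (standard error 0.24, adjusted p = 0.0918), and *Vgf* one of -0.29 (standard error 0.11, adjusted p = 0.193), and neither passed. *Inhba* passed with DESeq2's Wald test (adjusted p = 0.0315) and without E4/Abca1+/- replicate 8, the mouse with high striatal markers (log2 fold change -0.97, adjusted p = 0.0381). Whether the injury response itself differed with *Abca1* copies was tested as an interaction, which called 0 of the 10 genes in *APOE3* mice (beside 0% of all genes) and 0 in *APOE4* mice (beside 0%). At an unadjusted p under 0.05 edgeR's quasi-likelihood test gave 0 of the 10 genes in *APOE3* and 1 in *APOE4* mice, and DESeq2 called 0 in both. Over all genes 326 and 735 had an unadjusted p under 0.05, and DESeq2 called 0 and 0. The 1 gene of the 10 was *Pcsk1*, whose fall was larger by 0.42 log2 units in E4/Abca1+/- mice, as a difference of -0.42 (standard error 0.13, -0.67 to -0.16 as the 95% interval, adjusted p = 0.952).

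*APOE4* and *APOE3* mice did not differ past the threshold in any of the 10 genes. edgeR's quasi-likelihood test called 0 in Abca1+/+ sham mice (beside 0.349% of all genes), 0 in injured Abca1+/+ mice (beside 0.211%), 0 in Abca1+/- sham mice (beside 5.13%) and 0 in injured Abca1+/- mice (beside 2.90%). DESeq2 also called 0 in each, and at an unadjusted p under 0.05 the counts were 0, 4, 2 and 0. Beside them, 1328, 1093, 3526 and 2833 of all 15171 genes had such a p in the same order. The 4 in injured Abca1+/+ mice were all higher with *APOE4*: *Vgf* by 0.31 (standard error 0.12, adjusted p = 0.535), *Pcsk1* by 0.38 (standard error 0.16, adjusted p = 0.591), *Bdnf* by 0.41 (standard error 0.17, adjusted p = 0.613) and *Inhba* by 0.50 (standard error 0.24, adjusted p = 0.688) on the log2 scale. In Abca1+/- sham mice *Vgf* had -0.30 (standard error 0.11, adjusted p = 0.114) and *Bdnf* 0.22 (standard error 0.10, adjusted p = 0.211), in opposite directions. Without replicate 8 of the injured E4/Abca1+/- group, *Vgf* was called lower with *APOE4* there (log2 fold change -0.30, adjusted p = 0.0423, from -0.22 with it). As interactions of isoform and injury, 0 of the 10 genes were called in Abca1+/+ mice (beside 0% of all genes) and 0 in Abca1+/- mice (beside 0%), with edgeR's quasi-likelihood test and with DESeq2, and 0 had an unadjusted p under 0.05 in either. Over all genes the unadjusted counts were 321 and 962, and DESeq2 called 0 and 3. Interaction estimates of the 10 genes in Abca1+/+ mice ran from 0.04 to 0.36, with 95% intervals reaching -0.60 and 1.11. Most of these genes varied together between mice, so their shared sign is not 10 separate results. The comparisons within injured mice and those of TBI with sham share mice.

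**Figure D3:**
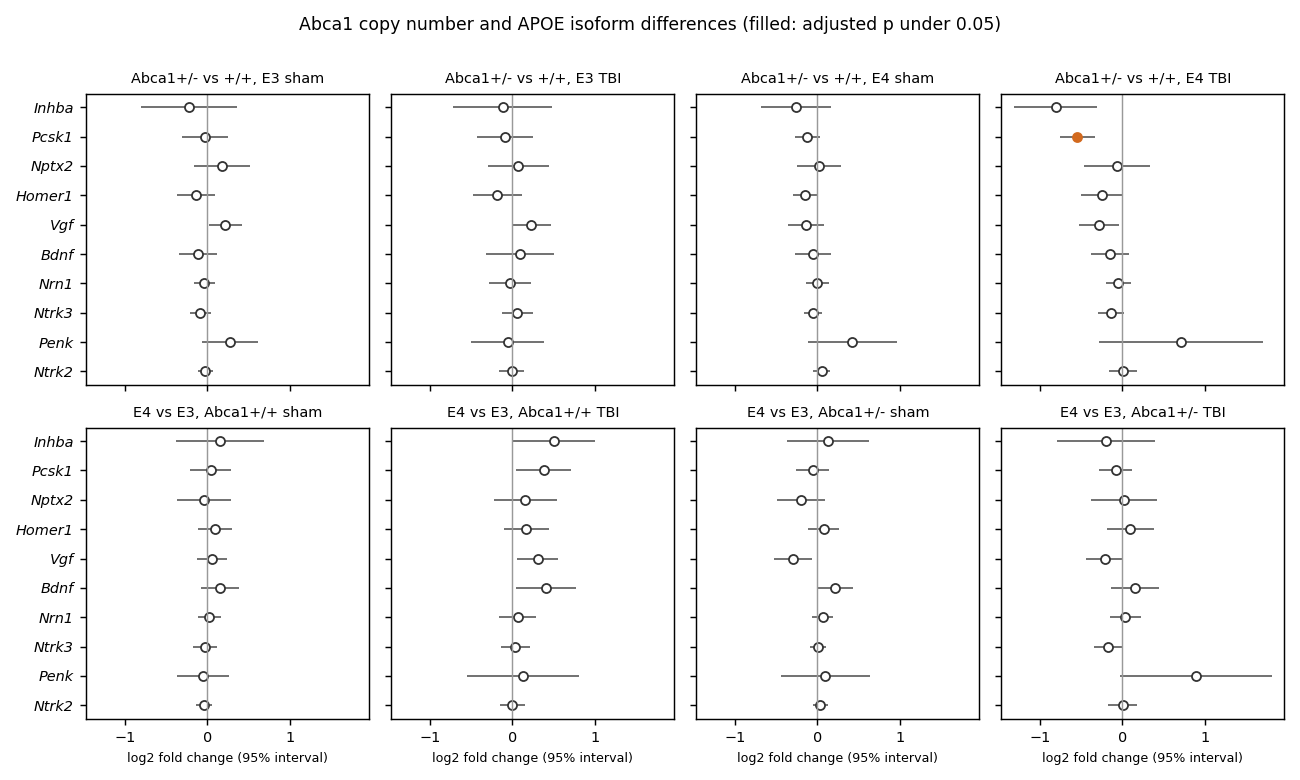
Log2 fold change (x axis) with its 95% interval for each of the 10 genes (y axis), Abca1+/- against Abca1+/+ in the upper row and *APOE4* against *APOE3* in the lower, filled where the adjusted p was under 0.05. The 1 filled point is *Pcsk1* in injured *APOE4* mice at -0.55, and the widest intervals are those of *Penk* and *Inhba*.

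*Penk* was the 1 of the 10 genes called between the sexes, beside 10.1% of all genes. It ranged from 27.9 to 289 CPM in 28 females (median 45.3) and from 19.0 to 69.9 CPM in 30 males (median 35.8). The ranges overlapped, and the highest values were from females. With group in the model the log2 fold change of females against males was 0.62 (standard error 0.15, adjusted p = 0.00722), and without the mouse with high striatal markers it was 0.45 (standard error 0.12, adjusted p = 0.00981). In that second fit *Adora2a*, a striatal marker, was also higher in females (log2 fold change 0.76, standard error 0.22, adjusted p = 0.0178), while *Drd1* had 0.01 (adjusted p = 0.914). The summed striatal markers had a median of 139 CPM in females and 131 CPM in males. After the highest mouse, the next *Penk* values, 108, 94.3 and 90.3 CPM, came from females with 1790, 1366 and 1357 CPM of summed choroid plexus markers. A female with 68.6 CPM of *Penk* had 35.8 CPM of these markers, and a male with 1895 CPM of them had 49.5 CPM of *Penk*. The highest choroid plexus sum, 2064 CPM, was in a female with 68.9 CPM of *Penk*. Males with 1185 and 1253 CPM of these markers had 51.0 and 50.3 CPM of *Penk*. The part of striatal or choroid plexus RNA in the sex difference was not tested. A sex by injury interaction was called for 0 of the 10 genes (beside 0% of all genes) by edgeR's quasi-likelihood test, also with DESeq2's size factors, and 1133 of all genes had an unadjusted p under 0.05. At an unadjusted p under 0.05 it named 1, *Ntrk2*, whose rise was larger in females by 0.20 (standard error 0.06, adjusted p = 0.350).

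**Figure D4:**
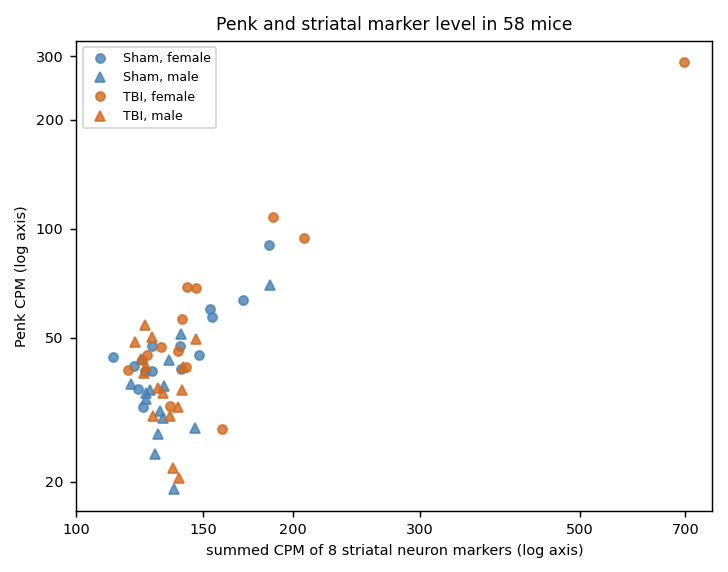
CPM of *Penk* (y axis, log scale) against the summed CPM of 8 striatal neuron markers (x axis, log scale) in 58 mice, blue for sham and orange for TBI, circles for females and triangles for males. Injured E4/Abca1+/- replicate 8 lies alone at 696 and 289 CPM, and the other 57 mice lie at up to 108 CPM of *Penk*.

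Between mice of the same group, most of the genes that fell also varied together. After group means of log2(CPM + 1) were removed, 28 of 45 pairs of the 10 genes passed a two-sided permutation test within groups over 58 mice (100000 resamples, adjusted over the 45 pairs), 27 of them with r above 0. By Spearman's rho 25 pairs passed. The median r was 0.39, and the range -0.38 to 0.79. No share of passing pairs was computed for other genes, so these counts do not show coupling particular to the 10. Ranked by r among 15170 genes, *Nrn1* was at rank 1 for *Bdnf* and *Homer1* at rank 3 for *Pcsk1*. Other passing pairs ranked far lower, with *Vgf* at rank 763 for *Bdnf* and *Homer1* at rank 365 for *Nrn1*. *Bdnf* and *Nrn1* varied together most closely (r = 0.79, rho = 0.72, adjusted permutation p = 4.09e-05 for r), with r = 0.74 in Abca1+/- and 0.82 in Abca1+/+ mice and 0.68 without the 2 mice farthest from the median. *Homer1* and *Pcsk1* were next (r = 0.79, rho = 0.76, adjusted permutation p = 4.09e-05 for r), with r = 0.67 in Abca1+/- and 0.86 in Abca1+/+ mice and 0.68 without 2 mice. *Nptx2* varied with *Bdnf* (r = 0.74, rho = 0.74, adjusted permutation p = 4.09e-05 for r), with *Inhba* (r = 0.72, rho = 0.75, adjusted permutation p = 4.09e-05 for r) and with *Vgf* (r = 0.70, rho = 0.70, adjusted permutation p = 4.09e-05 for r), and these r were 0.74, 0.74 and 0.72 without 2 mice. Within Abca1+/- and Abca1+/+ mice they were 0.74 and 0.74, 0.77 and 0.69, and 0.62 and 0.77. The permutation p of these 5 pairs, 1.00e-05 before adjustment, is the smallest the resamples can give.

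*Penk*, the gene not called after injury, varied with *Nptx2* (r = 0.63, rho = 0.66, adjusted permutation p = 4.09e-05 for r) and *Bdnf* (r = 0.52, rho = 0.59, adjusted permutation p = 1.50e-04 for r), and r was 0.59 and 0.55 without the mouse with high striatal markers. Within Abca1+/- and Abca1+/+ mice it was 0.69 and 0.59 with *Nptx2*, and 0.57 and 0.51 with *Bdnf*. Without the 2 mice farthest from the median the values were 0.62 and 0.58. The ligand *Bdnf* and its receptor *Ntrk2* did not pass, with r = -0.28, rho = -0.14 (adjusted permutation p = 0.109). The 1 pair with r below 0 that passed, *Ntrk2* and *Nrn1* (r = -0.38, rho = -0.16, adjusted permutation p = 0.0247 for r), did not pass by rank (adjusted permutation p = 0.306) and rested on 2 mice, without which r was -0.13.

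**Figure D5:**
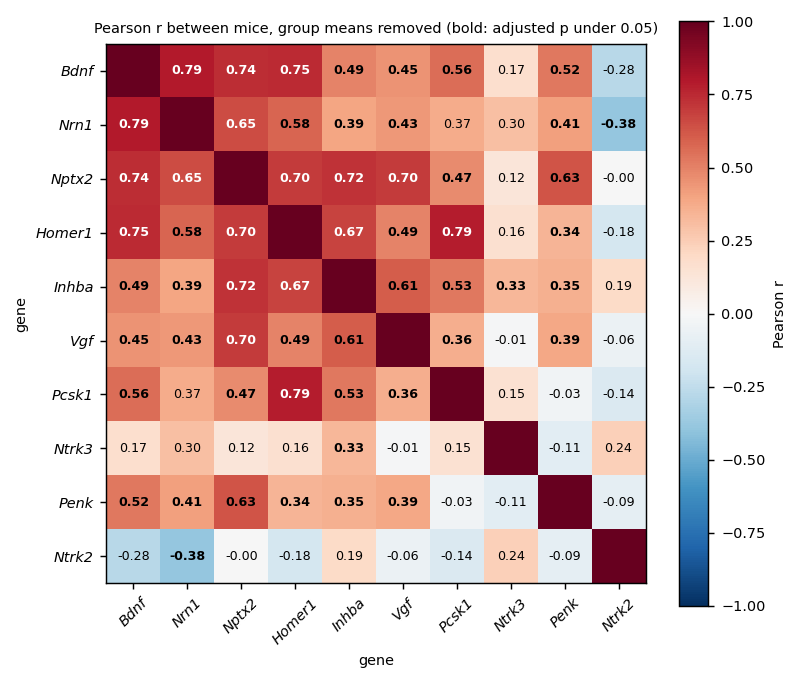
Pearson r between the 10 genes (both axes) over 58 mice after group means of log2(CPM + 1) were removed, red above and blue below 0, in bold where the adjusted permutation p was under 0.05. *Bdnf*, *Nrn1*, *Nptx2*, *Homer1*, *Inhba* and *Vgf* share r of 0.39 to 0.79, and the row of *Ntrk2* is pale or blue but for *Ntrk3* and *Inhba*.

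Against the other 15170 genes of the table, the 3 genes with the highest r over 58 mice are named here as a description of likeness, with r in parentheses. For *Bdnf* they were *Nrn1* (0.79), *Lipg* (0.76) and *Stim2* (0.76), so another of the 10 genes was its nearest of all. For *Pcsk1* they were *Etv5* (0.85), *Synj2* (0.81) and *Homer1* (0.79), and *Homer1* was again one of the 10. *Inhba* had *Fmnl1* (0.74), *Otub2* (0.74) and *Nptx2* (0.72), and *Nptx2* had *Otub2* (0.78), *Scg2* (0.75) and *Synpo* (0.75), of which *Scg2* is a granin of dense core granules. *Homer1* had *Rock2* (0.84), *Fmnl1* (0.83) and *Pdp1* (0.81), and *Vgf* had *Fscn1* (0.80), *Mapk8ip1* (0.79) and *Scrt2* (0.78). The nearest to *Nrn1* were *Mmp17* (0.87), *Olfm1* (0.86) and *Klhl2* (0.85). The receptors had other neighbors, *Il6st* (0.81), *Dag1* (0.77) and *Slc7a2* (0.77) for *Ntrk2* and *Exoc6b* (0.75), *Nrcam* (0.75) and *Dock4* (0.74) for *Ntrk3*. *Penk* was nearest to *Adora2a* (0.86), *Oprk1* (0.85) and *Six3* (0.85), where *Adora2a* is a striatal marker, and these 3 values include the mouse with high striatal markers. Over the other 57 mice they were 0.79, 0.80 and 0.80, at ranks 22, 10 and 13, so they were no longer the 3 nearest, whose r was 0.84 to 0.85.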

How the data were processed

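The authors deposited 1 table of read counts per gene and mouse, summarized with Subread/featureCounts 1.5.0 from Illumina reads of RNA with an integrity number over 8, and the submitters' processing notes name mm10. These counts are whole numbers without normalization. 2 blank rows were removed, 23 symbols that had become dates were named from their gene identifiers, and 15171 genes remained. Total counts per mouse are given in the report. A gene with 3 counts, the floor used, has 0.0792 CPM in the deepest and 0.679 CPM in the shallowest library, for counting error only.

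Groups came from the sample titles. Counts were tested with edgeR 4.0.16 (TMM, filterByExpr over the 8 groups, which removed 0 genes, and the quasi-likelihood test) in R 4.3.3 with limma 3.58.1, using only the groups compared, or all mice for the mean over genotypes and for sex, with a Benjamini-Hochberg adjusted p under 0.05 as the call. Mice are the replicates, and replicate numbers only name them. The 10 genes and the lists were chosen with earlier results of these data known. Genes named are the 10, *Abca1*, the 3 genes with the smallest p of each pathway list, the 3 nearest genes of each of the 10, and the highest gene of each marker list (some are not reported here), and other striatal markers of 1 mouse were named after their values were seen. Correlations used log2(CPM + 1) with group means removed and 100000 permutations within groups.

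Alternatives were DESeq2 1.42.0 (Wald test, or its size factors in edgeR), sex as a covariate, no filter, at least 10 counts in every mouse, thinning to the lowest total, 1 fit over all mice, leaving out the mouse with the lowest hippocampal score or each mouse in turn, and for correlations a pseudocount of 0.1, ranks and thinned counts. Filtering on the groups compared, the alternatives for sex, leaving out mice in the *Abca1* comparison of injured *APOE4* mice, the genes nearest to *Penk* without 1 mouse and the relations with marker sums were added after seeing the data. Promoters and gene spans came from RefSeq annotation of GRCm38.p6, and exon lengths and overlapping genes from GENCODE annotation of GRCm38. Other steps ran in Python 3.11.15 (pandas 2.3.3, scipy 1.17.1, numpy 2.4.6), and figures in matplotlib 3.10.9.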

Additional observations from a re-analysis of the deposited data

Results flagged for a closer look

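In each of 80 groups of values (10 genes in 8 groups), the gap of the lowest or highest mouse to its nearest neighbor was set against the group's range by Dixon's 95% limit, and 8 groups passed it, where chance passes about 1 in 20, or 4 of 80. They came from 6 mice, all female. Injured E3/Abca1+/+ replicate 8 had the highest *Ntrk2* of its group, 1104 CPM against 915 in the next mouse, and the lowest *Nrn1*, 98.1 against 163 CPM, with the lowest neuron and highest astrocyte marker sums of all mice beside them. In sham E3/Abca1+/- replicate 6 both *Homer1* (146 CPM, next 195) and *Pcsk1* (34.2 CPM, next 51.4) were the lowest of the group. Sham E3/Abca1+/+ replicate 7 had the lowest *Ntrk2*, 590.2 CPM with 689 next. Injured E3/Abca1+/+ replicate 5 had the highest *Inhba*, 5.50 CPM with 3.24 next. *Penk* was highest in injured E3/Abca1+/+ replicate 7, 94.3 CPM with 47.2 next, and in injured E4/Abca1+/- replicate 8, 289 CPM with 68.9 next. Those 2 mice had summed striatal markers of 207 and 696 CPM, the highest of all mice, and summed choroid plexus markers of 1366 and 302 CPM. Over injured mice the choroid plexus sum had a median of 24.1 CPM and reached 2064 CPM in another mouse. The part of other tissue in these values was not tested.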

How the results depend on the processing

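The number of the 10 genes called changed by over 1.5 times in 2 comparisons. In injured *APOE4* mice with 1 against 2 copies of *Abca1* it was 1, and it became 2 with DESeq2's Wald test, 0 on thinned counts, 2 without the mouse with the lowest hippocampal score, and 0 to 2 as each mouse was left out in turn. In injured Abca1+/- mice of *APOE4* against *APOE3* it was 0 and became 1 without that mouse. The cause was not tested. In the injury comparisons it kept within 1.5 times under every alternative, and with each mouse left out it was 7 to 9 in E3/Abca1+/+, 7 to 9 in E3/Abca1+/-, 6 to 9 in E4/Abca1+/+ and 9 in every case in E4/Abca1+/- mice. No direction of a called result turned. Of the values of single genes and pairs under the alternatives, 1676 stayed on their side of the threshold, 7 gained a call and 8 lost one, 3 of these being pairs that did not pass by rank (*Ntrk2* with *Nrn1*, *Vgf* with *Pcsk1*, *Homer1* with *Penk*). With a mouse left out the counts were 696, 6 and 28.

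Over all genes, the counts called moved by over 1.5 times as follows. With DESeq2's Wald test they went from 334 to 670, 27 to 150, 137 to 398 and 211 to 668 for *Abca1* copies (*APOE3* sham and TBI, *APOE4* sham and TBI), from 53 to 118, 32 to 69, 779 to 1341 and 440 to 919 for the isoform (Abca1+/+ sham and TBI, Abca1+/- sham and TBI), and from 0 to 3 for isoform by injury in Abca1+/- mice. On thinned counts, which hold fewer reads, they fell to 123, 7, 53 and 61 for *Abca1*, to 31, 182 and 178 for the isoform (Abca1+/+ sham, Abca1+/- sham and Abca1+/- TBI) and from 3607 to 2395 for injury in E3/Abca1+/- mice. One fit over all mice gave 63 and 1359 for *Abca1* in injured mice and 91, 91 and 899 for the isoform (Abca1+/+ sham, Abca1+/+ TBI and Abca1+/- TBI), and sex as a covariate 515 and 42 for *Abca1* in *APOE3* mice. For *Abca1* in injured *APOE4* mice the count ran from 40 to 786 as each mouse was left out. *Abca1* copies and depth cannot be told apart, and *Inhba* had 5 counts in its lowest library, the fewest of the 10 genes. No paired analysis was possible because replicate numbers were given in accession order and pair no mice.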

Other observations

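After the data were seen, the 10 genes were also set against summed cell type markers, as 40 relations in 4 families of 10, adjusted within each family, with group means removed. Among the 29 injured mice, *Ntrk2* followed the astrocyte sum (r = 0.86, rho = 0.81, adjusted permutation p = 1.00e-04 and 1.00e-04), with r = 0.77 after the 2 mice with sums most distant from the median were left out, and 0.89 and 0.82 within Abca1+/- and Abca1+/+ mice. It ran against the neuron sum (r = -0.82, rho = -0.76, adjusted permutation p = 1.00e-04 and 1.00e-04, -0.77 without 2 mice, -0.88 and -0.77 by *Abca1*). Their p-values before adjustment, 1.00e-05, are the smallest that 100000 permutations within groups can give. The other 9 genes did not pass against the astrocyte sum. Of the genes that fell, *Homer1* (r = 0.65, rho = 0.56, adjusted permutation p = 0.00520 and 0.00993, 0.40 without 2 mice, 0.63 and 0.67 by *Abca1*) and *Pcsk1* (r = 0.63, rho = 0.57, adjusted permutation p = 0.00380 and 0.00830, 0.49 without 2 mice, 0.25 and 0.84 by *Abca1*) followed the neuron sum, while *Bdnf* did not pass (r = 0.46, rho = 0.29, adjusted permutation p = 0.0518 and 0.217, 0.14 without 2 mice, 0.45 and 0.48 by *Abca1*), nor did *Nptx2* (r = 0.31, rho = 0.22, adjusted permutation p = 0.204 and 0.343, -0.04 without 2 mice, 0.41 and 0.23 by *Abca1*) or *Inhba* (r = 0.27, rho = 0.28, adjusted permutation p = 0.239 and 0.231, 0.10 without 2 mice, 0.32 and 0.23 by *Abca1*). *Nrn1* passed by r but not by rank (r = 0.52, rho = 0.37, adjusted permutation p = 0.0398 and 0.122, 0.31 without 2 mice, 0.48 and 0.55 by *Abca1*). *Vgf* did not pass (r = 0.46, rho = 0.33, adjusted permutation p = 0.0518 and 0.212, 0.21 without 2 mice, 0.64 and 0.33 by *Abca1*). Neither did *Ntrk3* (r = 0.06, rho = 0.11, adjusted permutation p = 0.794 and 0.663, 0.20 without 2 mice, -0.27 and 0.33 by *Abca1*). CPM values are shares of 1 total, so genes and sums of a library are not independent of each other.

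Against the microglia sum *Pcsk1* was lower where microglia markers were higher (r = -0.55, rho = -0.50, adjusted permutation p = 0.0231 and 0.0815, -0.62 without 2 mice), and this did not pass by rank. The relation was weaker within Abca1+/- than within Abca1+/+ mice (-0.23 and -0.67), a difference that was not tested. *Ntrk2* (r = 0.49, rho = 0.47, adjusted permutation p = 0.0347 and 0.0815, 0.45 without 2 mice, 0.33 and 0.64 by *Abca1*) and *Penk* (r = 0.50, rho = 0.36, adjusted permutation p = 0.0347 and 0.180, 0.32 without 2 mice, 0.36 and 0.63 by *Abca1*) also passed by r alone. Over all 58 mice *Penk* followed the striatal sum (r = 0.72, rho = 0.46, adjusted permutation p = 2.00e-04 and 0.0117), with r = 0.55 without 2 mice, 0.59 without the mouse with high striatal markers, and 0.84 and 0.56 within Abca1+/- and Abca1+/+ mice. *Ntrk3* (r = -0.41, rho = -0.27, adjusted permutation p = 0.0224 and 0.118) and *Nptx2* (r = 0.37, rho = 0.27, adjusted permutation p = 0.0224 and 0.118) passed by r but not by rank, and r was -0.19 and 0.23 without 2 mice and -0.57 and -0.28 and 0.52 and 0.19 within Abca1+/- and Abca1+/+ mice.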
